A study of Homo sapiens with 10 samples.

Results

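The genes described here are 10 oncofetal RNA-binding and chromatin genes, chosen by symbol from a fixed list, out of 26485 genes listed in the deposited files. They are LIN28A, LIN28B, IGF2BP1, IGF2BP2, IGF2BP3, MSI1, MSI2, HMGA1, HMGA2 and DICER1. Polyadenylated RNA was sequenced from SW480, an established human line from a colorectal adenocarcinoma, whose cells had been flow-sorted for ROBO1, a guidance receptor at the cell surface. The 5 ROBO1pos libraries (named SW480-CBC in the labels) were compared with 5 ROBO1neg libraries (SW480-RSC). Both groups are labelled wild type (WT), were grown in the same medium with serum and received no treatment. Both come from 1 cell line, and the labels do not say whether replicates were separate cultures, so the spread behind every p-value is that among these libraries and could be technical in part.

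Gene totals were 23228686 to 29539100 counts per library. Levels are given as CPM (counts-per-million of the reads on genes, scaled by the TMM method), and log2 fold changes are ROBO1pos over ROBO1neg. ROBO1 itself, on which the cells were sorted, had 430 ± 26.7 CPM in ROBO1pos and 7.25 ± 1.47 CPM in ROBO1neg (SD, n = 5 each), so the libraries match their labels. Of 10 colorectal epithelial markers, 8 had enough counts to be tested. EPCAM, VIL1, KRT8, KRT18, KRT19, CDH1 and CDX2 averaged 27.7 CPM or more in both groups and CDX1 under 1 CPM in both. Their levels were not alike in the groups. Of the 8, 3 passed as higher in ROBO1pos (EPCAM, VIL1 and CDX1) and 4 as lower (KRT8, KRT18, KRT19 and CDH1). Among all genes tested, 41.6% passed as higher and 40.4% as lower. VIL1 was at 503 CPM in ROBO1pos and 27.7 CPM in ROBO1neg. KRT18 was at 2343 CPM in ROBO1pos and 4095 CPM in ROBO1neg. KRT20 had 0 counts and CEACAM5 had 1 count in all libraries together. Of 14 markers of blood, endothelial and stromal cells, HBB and COL3A1 had 0 counts in all libraries, but others were present. Counts summed over ROBO1pos and over ROBO1neg libraries were 1437 and 2397 for ACTA2, 622 and 1814 for COL1A1, and 57 and 405 for VWF. They were 470 and 4 for LUM, and 257 and 43 for COL1A2. The summed level of the 14 ran from 23.0 to 27.5 CPM in ROBO1pos and from 36.2 to 45.1 CPM in ROBO1neg, and its part in the results was not tested. Of the 7 such markers that could be tested, 3 passed as higher in ROBO1pos (42.9%, against 41.6% of all genes tested) and 4 as lower (57.1%, against 40.4%). In bulk RNA, fewer cells that express a gene and less RNA per cell cannot be told apart.

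Oncofetal genes are active in embryonic tissue, silent or low in most adult tissues, and active again in many tumours. Several of the 10 are tied together by let-7, a family of microRNAs that accumulates as cells differentiate. LIN28A and LIN28B bind let-7 precursors and block their maturation, DICER1 cuts precursors into mature microRNAs, and HMGA2 and the IGF2BP genes are textbook let-7 targets. The IGF2BP proteins bind messenger RNAs and stabilise them or control their translation, the Musashi proteins MSI1 and MSI2 bind messenger RNAs of stem and progenitor cells, and HMGA1 and HMGA2 are architectural proteins that bind AT-rich DNA through AT-hooks.

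The mature let-7 sequences are shown because their seed, bases 2 to 8 counted from the 5′ end, is what the target messages are read against. All 9 mature let-7 and miR-98 names in the RefSeq table (GRCh38.p14) carry the seed GAGGUAG, in capitals in these 3 members of the family.
hsa-let-7a-5p: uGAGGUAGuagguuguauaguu
hsa-let-7g-5p: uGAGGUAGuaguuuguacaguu
hsa-miR-98-5p: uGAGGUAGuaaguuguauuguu
The precursor of let-7g (chr3:52268278-52268361, minus strand) is shown with GGAG in capitals, the letters that LIN28 proteins are known to recognise in let-7 precursors.
MIRLET7G hairpin: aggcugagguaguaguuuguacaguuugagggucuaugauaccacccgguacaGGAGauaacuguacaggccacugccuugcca
GGAG was present in 9 of 11 let-7 hairpins and in 43.4% of the 1562 hairpins of the table.

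The letters complementary to the seed, CTACCTC, were searched on the transcript strand of 3′ untranslated regions (the principal isoform of each gene in GENCODE release 29). They were present for 7 of the 10 genes and for 8.62% of 18895 genes; the reverse letters, GAGGTAG, were present for 7.03%. Since some of the 10 are known as let-7 targets, this share is a description of the choice of genes. HMGA2, IGF2BP1 and LIN28B held 4 matches each, as many as 0.107%, 0.595% and 0.248% of regions within 20% of their lengths. LIN28A, IGF2BP2, IGF2BP3 and HMGA1 held 1 each, and MSI1, MSI2 and DICER1 held none. The 8.62% is over regions of all lengths. Of regions within 20% of the length of LIN28A, IGF2BP2, IGF2BP3 and HMGA1, 16.2%, 11.2%, 12.0% and 8.28% held a match. The matches of IGF2BP2 (chr3:185644220-185644249, minus strand), IGF2BP3 (chr7:23311795-23311824, minus strand) and HMGA1 (chr6:34245822-34245851, plus strand), all GRCh38, are shown in capitals. Each of these genes holds 1 match, and they differ in the direction of their change. Any part of let-7 in those changes was not tested.
IGF2BP2: cgagaaaaacacacagaagaagCTACCTCa
IGF2BP3: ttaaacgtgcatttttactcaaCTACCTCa
HMGA1: ccatttttcctctgttcacaaaCTACCTCt
A match is a description of letters, and gene counts do not show which 3′ end a message carried.

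The genes divided into a group that was several-fold lower in ROBO1pos and a group that differed by small factors. HMGA2, IGF2BP2 and MSI1 were lower in ROBO1pos, by 5.57-fold, 4.18-fold and 3.69-fold. IGF2BP3, IGF2BP1, DICER1 and HMGA1 were higher in ROBO1pos, each by less than 1.5-fold, and MSI2 was 1.13-fold lower in ROBO1pos. LIN28B was not detected and LIN28A was barely so. With Benjamini-Hochberg adjustment of edgeR's quasi-likelihood p-values over all 14932 genes tested, 4 of the 8 genes tested were called higher in ROBO1pos and 4 lower, at an adjusted p under 0.05. The populations differed in most genes: 82.0% of all genes tested were called, 41.6% as higher in ROBO1pos and 40.4% as higher in ROBO1neg, so being called is not particular to these genes. A difference of at least 2-fold was called for 3 of the 8 and for 30.3% of all genes tested. In a test against a difference of 1.5-fold, 3 of the 8 and 41.8% of all genes tested were called. For 6 of the 8, every library of one group lay above every library of the other, as for 71.9% of all genes tested. The median absolute log2 fold change was 0.52 for the 8 genes and 0.58 for all genes tested.

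**Figure D1:**
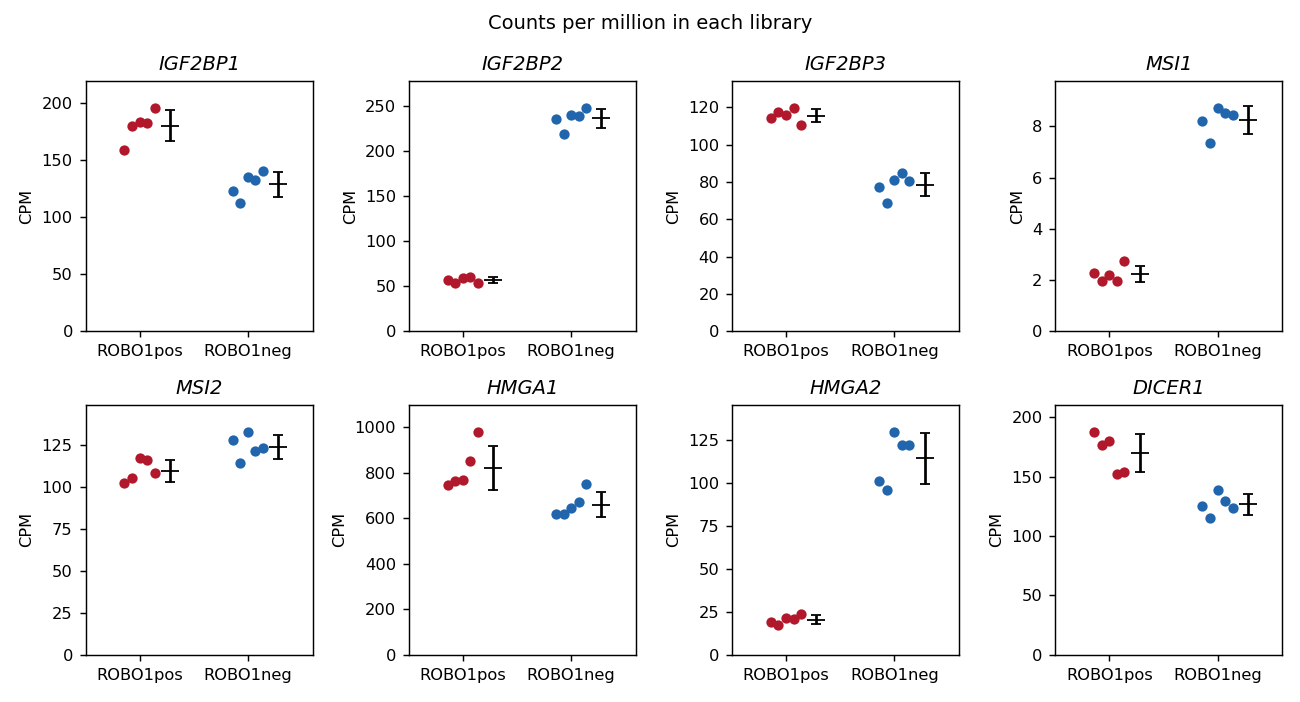
Counts-per-million (CPM, axes from 0) of the 8 genes tested in each of the 5 ROBO1pos libraries (red) and 5 ROBO1neg libraries (blue); the black mark and bar beside each group are its mean and SD. HMGA2, IGF2BP2 and MSI1 are far lower in ROBO1pos, while the groups of HMGA1 and MSI2 overlap.

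LIN28B, the paralog known to be re-expressed in some colorectal tumours, had 0 counts in all 10 libraries, which allows a level of up to 0.0236 CPM in ROBO1pos and 0.0235 CPM in ROBO1neg. LIN28A had 1 count over the ROBO1pos libraries, in replicate 5, and 9 counts over the ROBO1neg libraries, where replicates 1, 2, 3, 4 and 5 had 1, 4, 2, 0 and 2. Its ratio of summed counts, ROBO1pos over ROBO1neg, was 0.112 (95% exact binomial interval 0.00255 to 0.808, for counting error only). Neither gene passed the filter on low counts, and a difference in LIN28B was not detectable at this depth. With no filter beyond 1 count LIN28A was tested and called lower in ROBO1pos (log2 fold change -2.59, edgeR adjusted p = 0.037), on these 10 counts in all. TRIM71, a let-7 target and stem cell ubiquitin ligase, was also low, at 0.647 ± 0.177 CPM in ROBO1pos and 0.782 ± 0.197 CPM in ROBO1neg (SD, n = 5 each), and did not pass the test (edgeR adjusted p = 0.31). Its log2 fold change was -0.28, but 0.57 and called once the median of its chromosomal neighbours was removed (limma adjusted p = 0.028).

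IGF2BP2, the family member that is also widely expressed in adult tissue, lies on chromosome 3 from 185643130 to 185825042 (gene positions are those of RefSeq on GRCh38.p14). It had 56.7, 53.7, 59.2, 59.8 and 53.3 CPM in ROBO1pos libraries 1 to 5, against 235, 219, 239.9, 238 and 248 CPM in ROBO1neg libraries 1 to 5. Every ROBO1pos library lay far below every ROBO1neg library, and libraries within a group were close, with a coefficient of variation of 5.32% in ROBO1pos and 4.46% in ROBO1neg. The log2 fold change was -2.06 (SE 0.05, edgeR adjusted p = 1.6e-13). The 20 tested genes on each side of IGF2BP2 were also lower in ROBO1pos, with a median log2 fold change of -0.83. With that median removed the log2 fold change of IGF2BP2 was -1.23 and it was still called (limma adjusted p = 1.2e-11), so its neighbours' shift was smaller than its own.

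IGF2BP1, a strictly oncofetal family member, lies on chromosome 17 from 48996558 to 49056145. It had 158, 179, 183, 183 and 195 CPM in ROBO1pos libraries, against 122, 113, 135, 132 and 140.2 CPM in ROBO1neg libraries. The groups did not overlap, with ROBO1pos replicate 1 the lowest of its group and still above all of ROBO1neg. This gave a log2 fold change of 0.48 (SE 0.07, edgeR adjusted p = 9.3e-06). The neighbours of IGF2BP1 went the other way, with a median of -0.92, and with that median removed its log2 fold change was 1.40.

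IGF2BP3, the third family member, lies on chromosome 7 from 23310209 to 23470491. It had 114, 117, 116, 119.7 and 111 CPM in ROBO1pos libraries, against 77.4, 68.5, 80.8, 84.8 and 80.6 CPM in ROBO1neg libraries. All ROBO1pos libraries were above all ROBO1neg libraries, with the narrowest relative spread of the 8 genes in ROBO1pos (coefficient of variation 2.96%). Its log2 fold change was 0.56 (SE 0.05, edgeR adjusted p = 1.9e-07). Its neighbours had a median of 0.50, and once that was removed the log2 fold change of IGF2BP3 was 0.056 and it was no longer called (limma adjusted p = 0.34). In GENCODE, 1521 exon bases of IGF2BP3 are shared with MALSU1 on the opposite strand, so reads of the pair may not be separated; MALSU1 was at 31.4 ± 2.20 CPM in ROBO1pos and 31.5 ± 1.26 CPM in ROBO1neg and did not pass the test (edgeR adjusted p = 0.93).

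Within each library, the IGF2BP paralogs were present in different proportions in the populations. The log2 ratio of IGF2BP1 to IGF2BP2 counts was 1.67 ± 0.15 in ROBO1pos and -0.88 ± 0.07 in ROBO1neg (SD, n = 5 each), so IGF2BP1 counts exceeded IGF2BP2 counts in every ROBO1pos library and in no ROBO1neg library. The log2 ratio of IGF2BP2 to IGF2BP3 was -1.03 ± 0.06 in ROBO1pos and 1.59 ± 0.07 in ROBO1neg. Both differences had an exact two-sided permutation p of 0.00794 (adjusted p = 0.00992 over 5 ratios). That is the smallest p that 5 against 5 libraries can give when they are treated as unpaired. By contrast, the log2 ratio of IGF2BP1 to IGF2BP3 was 0.64 ± 0.13 in ROBO1pos and 0.71 ± 0.06 in ROBO1neg, a difference of -0.076 that did not pass (exact permutation p = 0.25, adjusted p = 0.25). Such a ratio does not depend on how libraries were scaled.

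To compare levels between genes, CPM was divided by the length of all exons in GENCODE. IGF2BP2 then made up 23.2% ± 1.10 of the summed CPM per kb of the 3 paralogs in ROBO1pos and 64.5% ± 0.957 in ROBO1neg (SD, n = 5 each). IGF2BP3 made up 42.7% ± 1.27 in ROBO1pos and 19.3% ± 0.678 in ROBO1neg, and IGF2BP1 34.1% ± 2.04 in ROBO1pos and 16.2% ± 0.559 in ROBO1neg. IGF2BP2 was thus the least abundant paralog per length in ROBO1pos and the most abundant in ROBO1neg. The 3 together summed to 63.7 ± 1.92 CPM per kb in ROBO1pos and 95.7 ± 5.32 CPM per kb in ROBO1neg. The length used for IGF2BP3, 4250 bases, includes the 1521 shared with MALSU1. If reads there were left unassigned, the level and share of IGF2BP3 per length, here and below, are too low, which was not tested.

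**Figure D2:**
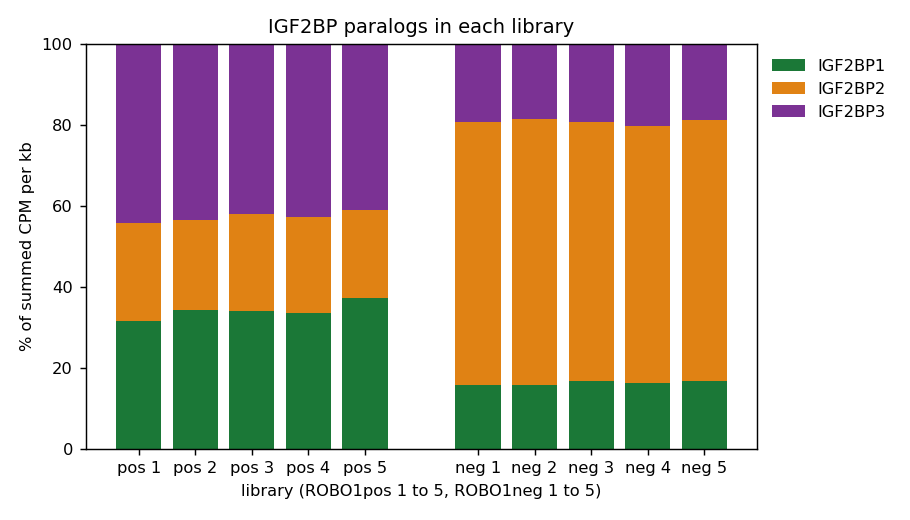
Share of each IGF2BP paralog in the summed CPM per kb of the 3 (percent, stacked, axis from 0) in ROBO1pos libraries 1 to 5 and ROBO1neg libraries 1 to 5. IGF2BP2 (orange) takes 21.9% to 24.4% in ROBO1pos and 63.4% to 65.8% in ROBO1neg.

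The promoters of IGF2BP2 and IGF2BP3 in the RefSeq table are shown because these paralogs differed in opposite directions. Each runs from 250 bases before to 50 after a start on the minus strand, chr3:185824993-185825292 for IGF2BP2 and chr7:23470442-23470741 for IGF2BP3 (GRCh38.p14). The motifs searched on both strands were TGANTCA (AP-1), GGAATG (TEAD), CTTTGA (TCF/LEF), CACGTG (E-box) and GGGCGG (GC box), and matches are in capitals.
IGF2BP2 promoter: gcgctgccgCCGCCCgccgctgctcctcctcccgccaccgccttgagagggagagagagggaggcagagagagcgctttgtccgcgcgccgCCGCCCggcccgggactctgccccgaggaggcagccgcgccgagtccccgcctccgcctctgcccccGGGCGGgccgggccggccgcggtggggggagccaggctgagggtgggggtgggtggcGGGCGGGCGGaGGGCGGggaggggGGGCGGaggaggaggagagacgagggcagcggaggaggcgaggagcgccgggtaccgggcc
IGF2BP3 promoter: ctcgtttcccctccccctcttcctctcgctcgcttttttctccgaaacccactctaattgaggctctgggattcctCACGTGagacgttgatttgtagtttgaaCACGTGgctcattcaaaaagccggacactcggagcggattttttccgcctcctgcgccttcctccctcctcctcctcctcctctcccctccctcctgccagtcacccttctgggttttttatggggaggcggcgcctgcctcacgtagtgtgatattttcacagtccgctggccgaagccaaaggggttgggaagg
The IGF2BP2 window is 80.7% G or C with 38 CpG pairs and 7 GC boxes, of which 2 overlap each other. The IGF2BP3 window is 56.3% G or C with 17 CpG pairs and 2 E-boxes. Over 35116 promoters of the same length the medians were 58.7% and 14 CpG pairs. GC boxes were in 44.95% of them, E-boxes in 7.26%, AP-1 letters in 7.71%, TEAD letters in 14.03% and TCF/LEF letters in 12.9%; neither window shown held the last 3. The table has a second IGF2BP2 promoter (chr3:185821093-185821392, minus strand), not printed, that differs from the first on these counts except E-boxes, which neither holds. It is 35.0% G or C with 3 CpG pairs, holds 1 match each to the AP-1, TEAD and TCF/LEF letters and holds no GC box. Gene counts do not show which of these starts was used. The table has no promoter for LIN28A, IGF2BP1, MSI1 or HMGA2.

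HMGA2, the strictly embryonic member of the HMGA pair, lies on chromosome 12 from 65824460 to 65966291 and had the largest absolute fold change of the 8. It had 18.96, 17.2, 21.7, 21.0 and 24.0 CPM in ROBO1pos libraries, against 101, 96.0, 130.1, 122 and 122 CPM in ROBO1neg libraries. The lowest ROBO1neg library was far above the highest ROBO1pos library, although spread within groups was the widest of the genes above 10 CPM (coefficient of variation 12.6% in ROBO1pos and 13.0% in ROBO1neg). The log2 fold change was -2.48 (SE 0.10, edgeR adjusted p = 2.6e-11), more negative than that of all but 6.53% of genes tested. Its neighbours did not shift with it, with a median of 0.08. In GENCODE, 384 exon bases of HMGA2 are shared with an antisense gene.

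HMGA1, its paralog, which is also expressed in proliferating adult cells, lies on chromosome 6 from 34236873 to 34246231. It had 748, 762, 767, 849.5 and 980.4 CPM in ROBO1pos libraries, against 617, 617, 646, 671 and 749.7 CPM in ROBO1neg libraries. The groups overlapped, since ROBO1neg replicate 5 lay above ROBO1pos replicate 1, and ROBO1pos replicate 5 was the highest of all. HMGA1 had a log2 fold change of 0.32 (SE 0.08, edgeR adjusted p = 0.0017). Removing its neighbours' median of 0.16 left 0.15, which was not called (limma adjusted p = 0.080). GENCODE lists 8 HMGA1 pseudogenes, and reads with several alignments made up 24.1% to 26.2% of a ROBO1pos library and 20.5% to 21.5% of a ROBO1neg library, so the counts of HMGA1 are uncertain where reads could be shared; the part of this in the difference was not tested.

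The log2 ratio of HMGA1 to HMGA2 counts within a library was 5.32 ± 0.12 in ROBO1pos and 2.53 ± 0.15 in ROBO1neg (SD, n = 5 each; exact two-sided permutation p = 0.00794, adjusted p = 0.00992). HMGA1 was the more abundant in every library. Per exon length it stood at 353 ± 41.9 CPM per kb in ROBO1pos and 284 ± 23.6 CPM per kb in ROBO1neg, above all of the other 9 genes in both groups. In level it was higher than 99.2% of all genes tested.

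MSI1, the Musashi protein first used as a marker of neural and intestinal stem cells, lies on chromosome 12 from 120339662 to 120369164 and was the lowest of the genes tested. It had 2.28, 1.96, 2.21, 1.98 and 2.75 CPM in ROBO1pos libraries, from 49 to 67 counts each, against 8.20, 7.36, 8.72, 8.53 and 8.44 CPM in ROBO1neg libraries, from 171 to 250 counts each. The groups were far apart despite the low level. The log2 fold change was -1.88 (SE 0.11, edgeR adjusted p = 1.3e-09), with a neighbour median of 0.06.

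MSI2, its more widely expressed paralog, lies on chromosome 17 from 57255851 to 57701581. It had 102, 105, 117, 116 and 109 CPM in ROBO1pos libraries, against 128, 114, 133, 121 and 124 CPM in ROBO1neg libraries. The groups overlapped, since ROBO1neg replicate 2 lay below 2 of the ROBO1pos libraries. The log2 fold change was -0.18 (SE 0.05, edgeR adjusted p = 0.0058), and the call did not hold with upper quartile scaling (adjusted p = 0.054). Its neighbours had a median of -0.21, and with it removed the value was 0.032 and not called (limma adjusted p = 0.56). The log2 ratio of MSI1 to MSI2 counts was -5.61 ± 0.23 in ROBO1pos and -3.91 ± 0.06 in ROBO1neg (SD, n = 5 each; exact two-sided permutation p = 0.00794, adjusted p = 0.00992), so MSI2 was the predominant Musashi gene in every library.

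DICER1, the enzyme that cuts microRNA precursors, lies on chromosome 14 from 95086228 to 95158010. It had 188, 177, 179.7, 153 and 154 CPM in ROBO1pos libraries, against 126, 115, 139, 129 and 124 CPM in ROBO1neg libraries. ROBO1pos replicates 4 and 5 lay below the other 3 but above every ROBO1neg library. DICER1 had a log2 fold change of 0.43 (SE 0.07, edgeR adjusted p = 3.5e-05). The neighbours of DICER1 had a median of -0.36, opposite to its own direction, and with it removed the value was 0.79. The antisense gene DICER1-AS1, which shares 80 exon bases with it in GENCODE, was higher in ROBO1pos as well, at 11.3 ± 0.747 CPM against 5.81 ± 0.941 CPM in ROBO1neg.

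**Figure D3:**
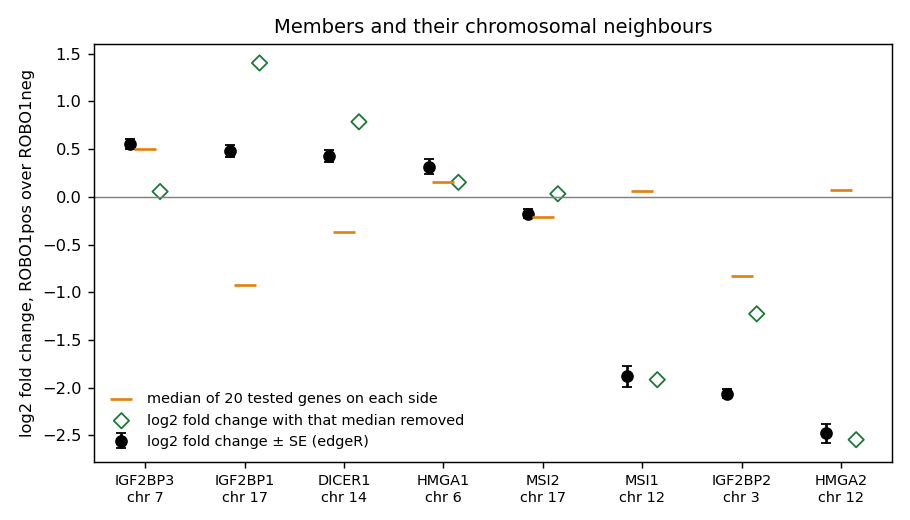
Log2 fold change, ROBO1pos over ROBO1neg, of the 8 genes tested (black, with SE from edgeR), the median log2 fold change of the 20 tested genes on each side of each (orange), and the value with that median removed (green). IGF2BP3, HMGA1 and MSI2 lie near their neighbours' medians, whereas HMGA2 and MSI1 lie far from them and IGF2BP1 and DICER1 lie on the other side of 0.

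Per exon length, IGF2BP3 at 27.2 ± 0.804 CPM per kb and IGF2BP1 at 21.7 ± 1.63 CPM per kb followed HMGA1 in ROBO1pos (SD, n = 5). DICER1, IGF2BP2 and MSI2 came next, at 15.9, 14.8 and 13.7 CPM per kb, and each overlapped its neighbour in that order. HMGA2 at 1.47 and MSI1 at 0.752 CPM per kb were the lowest of the genes tested there. In ROBO1neg, IGF2BP2 at 61.7 ± 2.75 CPM per kb followed HMGA1, and IGF2BP3, IGF2BP1 and MSI2 overlapped at 18.5, 15.5 and 15.5 CPM per kb. DICER1 at 11.8, HMGA2 at 8.15 and MSI1 at 2.77 CPM per kb came last. The places of HMGA2 and MSI2 depend on the length used. With the longest transcript in place of all exons, HMGA2 was at 14.1 CPM per kb in ROBO1neg, above DICER1 at 12.3. On that scale MSI2 was at 17.3 CPM per kb in ROBO1pos, above DICER1 at 16.5 and IGF2BP2 at 15.3, and at 19.5 CPM per kb in ROBO1neg, above IGF2BP3 at 18.5 and IGF2BP1 at 15.5.

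Of 23 other genes tested of microRNA processing and let-7 regulation, 13 passed as higher in ROBO1pos (56.5%, against 41.6% of all genes tested), 4 as lower (17.4%, against 40.4%) and 6 not at all. No test was made of this difference in shares, and their median log2 fold change was 0.21 against 0.02 for all genes tested. AGO2, the Argonaute protein that cuts targets, was at 40.6 ± 1.20 CPM in ROBO1pos and 13.3 ± 1.36 CPM in ROBO1neg (SD, n = 5 each here and below). XPO5, which exports precursors from the nucleus, was at 176 ± 5.72 CPM in ROBO1pos and 108 ± 5.74 CPM in ROBO1neg.

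The enzymes that tail let-7 precursors for decay differed in direction. ZCCHC6 (now TUT7) was at 26.7 ± 1.247 CPM in ROBO1pos and 51.1 ± 4.25 CPM in ROBO1neg, whereas ZCCHC11 (now TUT4) was at 79.1 ± 5.07 CPM in ROBO1pos and 59.6 ± 2.17 CPM in ROBO1neg. DIS3L2, the nuclease that degrades tailed precursors, was at 31.4 ± 1.57 CPM in ROBO1pos and 23.2 ± 0.731 CPM in ROBO1neg. All 3 passed edgeR's test (adjusted p = 3.4e-09 for ZCCHC6, 2.3e-06 for ZCCHC11 and 2.3e-06 for DIS3L2). Removal of its neighbours' median of -0.62 took the log2 fold change of ZCCHC6 to -0.31, against -0.94 without that step. The microprocessor genes DROSHA and DGCR8 differed little, by 0.21 (SE 0.04) and 0.15 (SE 0.04) on the log2 scale. The direction of both depends on chromosomal neighbours. With their median removed DROSHA was at -0.33 and called (limma adjusted p = 5.1e-06), and DGCR8 was at -0.013 and not called (limma adjusted p = 0.75). PRKRA, a DICER1 partner, had a log2 fold change of -0.33 (SE 0.06), beside a neighbour median of -0.33 and 0.0054 with that removed.

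Mature let-7 is not measured by polyadenylated RNA. Of 20 let-7 precursors and host transcripts, 19 were listed and 6 had enough counts to be tested. Of these 6, 2 passed as higher in ROBO1pos and 3 as lower (median log2 fold change -0.40). The shares among all genes tested were 41.6% and 40.4%. MIRLET7BHG was at 3.53 ± 0.521 CPM in ROBO1pos and 5.92 ± 0.905 CPM in ROBO1neg (difference -0.74 on the log2 scale, edgeR adjusted p = 1.7e-04). MIR99AHG, which holds let-7c, was at 0.353 ± 0.101 CPM in ROBO1pos and 1.30 ± 0.395 CPM in ROBO1neg, and WDR82, the host of let-7g, had a log2 fold change of -0.74 (SE 0.05), or -0.31 with its neighbours' median of -0.43 removed. MIR100HG, which holds let-7a-2, went the other way, at 1.121 ± 0.208 CPM in ROBO1pos and 0.560 ± 0.159 CPM in ROBO1neg, as did HUWE1, the host of let-7f-2 and miR-98, with a log2 fold change of 0.25 (SE 0.08) that was 0.028 and not called without its neighbours' median.

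Other genes known as let-7 targets moved in both directions. Of 31 tested, 13 passed as higher in ROBO1pos (41.9%, against 41.6% of all genes tested) and 11 as lower (35.5%, against 40.4%). Being called in both directions is thus not particular to this list, whose median log2 fold change was -0.0043. Cell cycle genes stood on both sides. CCND2, a D-type cyclin, was at 600.5 ± 45.9 CPM in ROBO1pos and 11.3 ± 2.78 CPM in ROBO1neg, and its kinase partner CDK6 at 799.8 ± 84.5 CPM in ROBO1pos and 165 ± 19.3 CPM in ROBO1neg. CCND1, another D-type cyclin, and RRM2, a subunit of ribonucleotide reductase, had log2 fold changes of -3.14 (SE 0.09) and -1.57 (SE 0.07). THBS1, a matrix glycoprotein, was at 3.75 ± 0.518 CPM in ROBO1pos and 104 ± 26.9 CPM in ROBO1neg.

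Messages known to be bound by IGF2BP proteins were likewise divided. Of 18 tested, 9 passed as higher in ROBO1pos and 6 as lower (median log2 fold change 0.21). Among all genes tested, 41.6% passed as higher and 40.4% as lower, so being called in both directions is not particular to this list. The difference in shares was not tested. IGF2, the growth factor for which the family is named, was at 9.10 ± 1.85 CPM in ROBO1pos and 1.48 ± 0.299 CPM in ROBO1neg (difference 2.62 on the log2 scale, SE 0.18, edgeR adjusted p = 5.1e-09), while H19, transcribed from the same imprinted locus, had 0 counts in all libraries. MYC, whose message the family protects from decay, was at 563 ± 65.8 CPM in ROBO1pos and 253 ± 24.6 CPM in ROBO1neg. ABCB1, a drug efflux pump, was at 290.1 ± 78.0 CPM in ROBO1pos and 16.5 ± 2.68 CPM in ROBO1neg, and PABPC1, the poly(A)-binding protein, at 2043 ± 122 CPM in ROBO1pos and 1043 ± 71.2 CPM in ROBO1neg. CCND3, the third D-type cyclin, was at 30.1 ± 2.75 CPM in ROBO1pos and 69.2 ± 6.02 CPM in ROBO1neg.

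Of 14 messages tested that Musashi proteins are known to bind, 7 passed as higher in ROBO1pos and 4 as lower (median log2 fold change 0.11). The shares among all genes tested were 41.6% and 40.4%, and the difference from them was not tested. CDKN1A, the cell cycle inhibitor p21, was at 16.0 ± 3.62 CPM in ROBO1pos and 92.9 ± 3.54 CPM in ROBO1neg. NUMB, a Notch inhibitor and classical Musashi target, was at 108 ± 3.18 CPM in ROBO1pos and 142 ± 3.64 CPM in ROBO1neg. LRIG1, a brake on ERBB signalling in intestinal stem cells, had a log2 fold change of -1.02 (SE 0.09), or -0.22 with its neighbours' median of -0.79 removed. IKZF2, a zinc finger factor, was at 3.17 ± 0.318 CPM in ROBO1pos and 0.865 ± 0.204 CPM in ROBO1neg.

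**Figure D4:**
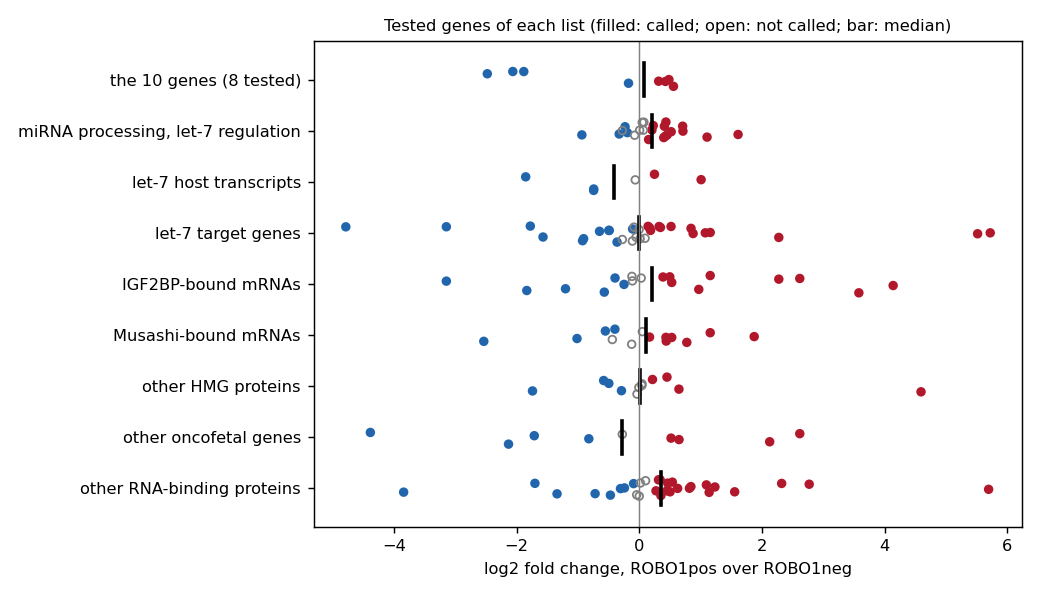
Log2 fold change, ROBO1pos over ROBO1neg, of the tested genes of each list; filled points passed edgeR's test (red higher and blue lower in ROBO1pos), open points did not, and black bars are medians. Each list shown holds genes called in both directions, and their medians lie between -0.40 (let-7 host transcripts) and 0.35 (other RNA-binding proteins); the marker lists of epithelial and other cell types are not drawn.

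Among the other high mobility group proteins, chromatin proteins outside the HMGA family, 4 of 12 tested passed as higher in ROBO1pos and 4 as lower (median log2 fold change 0.02). Each is 33.3%, against 41.6% and 40.4% of all genes tested. HMGN5, which binds nucleosomes, was at 28.5 ± 4.25 CPM in ROBO1pos and 1.17 ± 0.230 CPM in ROBO1neg. HMG20B, a subunit of a histone demethylase complex, was at 17.4 ± 1.81 CPM in ROBO1pos and 58.1 ± 2.23 CPM in ROBO1neg, and its log2 fold change of -1.74 was -0.82 with its neighbours' median of -0.92 removed. The nucleosome binders HMGN2 and HMGN3 had log2 fold changes of -0.58 (SE 0.05) and 0.65 (SE 0.05). HMGB1 was at -0.50 (SE 0.05), but at 0.23 and called once its neighbours' median of -0.73 was removed (limma adjusted p = 4.2e-04).

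Of 17 other oncofetal genes, 9 were tested, of which 4 passed as higher in ROBO1pos and 4 as lower (median log2 fold change -0.28). Each is 44.4%, against 41.6% and 40.4% of all genes tested. SALL4, a stem cell transcription factor, was at 0.235 ± 0.0906 CPM in ROBO1pos and 4.99 ± 0.733 CPM in ROBO1neg. TPBG, the trophoblast glycoprotein, was at 16.8 ± 1.57 CPM in ROBO1pos and 73.9 ± 7.24 CPM in ROBO1neg. PLAG1, a zinc finger activator of IGF2, had a log2 fold change of 0.65 (SE 0.06), and its relative PLAGL1 one of -0.82 (SE 0.08). AFP, the fetal serum protein, had 0 counts in all libraries.

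Of 30 RNA-binding proteins tested outside the 10 genes, 18 passed as higher in ROBO1pos (60.0%, against 41.6% of all genes tested) and 8 as lower (26.7%, against 40.4%), with a median log2 fold change of 0.35; the difference in shares was not tested. The paralogs ZFP36L2 and ZFP36L1, which promote decay of AU-rich messages, moved apart: ZFP36L2 was at 174 ± 7.71 CPM in ROBO1pos and 34.8 ± 2.85 CPM in ROBO1neg, and ZFP36L1 at 36.5 ± 6.82 CPM in ROBO1pos and 523 ± 30.7 CPM in ROBO1neg. YBX1, a cold shock domain protein like the LIN28 proteins, was at 807 ± 23.2 CPM in ROBO1pos and 450.4 ± 11.3 CPM in ROBO1neg. CELF2, a splicing and stability factor, was at 21.4 ± 4.18 CPM in ROBO1pos and 0.403 ± 0.135 CPM in ROBO1neg. MEX3D, a KH domain protein, had a log2 fold change of -1.70 (SE 0.08), or -0.80 with its neighbours' median of -0.89 removed.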

How the data were processed

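RNA-seq of 10 SW480 libraries was used. Each deposited file holds raw, unnormalised counts of reads for the genes of 1 library. The submitters' processing notes name GRCh38, STAR 2.6.0c, SAMtools 1.9, DESeq2 1.24.0, FastQC and bcl2fastq; how reads were counted, with which strand setting and annotation, was not given in the sources used here. Reads assigned to no gene stayed out of library sizes and tests: per library 14.1% to 16.7% had no feature, 20.5% to 26.2% had several alignments and at most 0.881% were ambiguous. Genes passing filterByExpr were scaled by TMM and tested with edgeR 4.0.16 (R 4.3.3; quasi-likelihood model, group as the only term), with Benjamini-Hochberg adjustment over 14932 genes and a threshold of 0.05. This procedure was tested on simulated data in which few genes changed. That setting does not cover data such as these, where most genes tested were called. An SE is the log2 fold change divided by the root of its F statistic. Paralog ratios used counts plus 0.5 and an exact permutation test over 252 assignments (scipy 1.17.1). Alternatives comprised RLE, upper quartile and library size scaling, looser and stricter filters, DESeq2 1.42.0, limma-voom (limma 3.58.1), testing against 1.5-fold, a block on replicate number, omission of each library, and correction for chromosomal neighbours (the median change of the 20 nearest tested genes per side, subtracted). Positions came from RefSeq (GRCh38.p14), which placed 13663 tested genes by symbol and 944 by an older name but not the other 325. Libraries of 1 group differed beyond sampling noise (chi-square per degree of freedom 3.54 to 21.9), so none was 1 library sequenced again. This cannot show whether libraries were prepared from the same culture or RNA. The 10 genes, the lists and the tests were chosen with earlier results of these data known. Named genes were the 10 members, ROBO1, 12 partners of members, and from each list up to 5 tested genes by smallest adjusted p, limited to 3 in a direction if both directions were called. One gene taken by this rule is not reported here. MALSU1, DICER1-AS1, CDH1, CDX1, CDX2, KRT20, CEACAM5, HBB, COL3A1 and AFP were named after their values were seen. The lists share 11 genes.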

Additional observations from a re-analysis of the deposited data

How the results depend on the processing

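All 8 members tested kept their direction in the 20 alternatives run for each, except MSI2, whose log2 fold change was 0.032 with the neighbour median removed. HMGA2, IGF2BP2 and MSI1 were called in every alternative, with ranges of -2.55 to -2.41, -2.09 to -1.23 and -1.97 to -1.82. MSI1 met the filter of 5 CPM in 5 libraries only through ROBO1neg, at 7.36 to 8.72 CPM, against 1.96 to 2.75 CPM in ROBO1pos. With upper quartile scaling MSI2 was at -0.11 and not called. In the test against 1.5-fold, IGF2BP1 (0.48), IGF2BP3 (0.56), HMGA1 (0.32), DICER1 (0.43) and MSI2 (-0.18) were not called, so 0 members were called higher in ROBO1pos (41.8% of all genes were called in that test). With the neighbour median removed, 2 members were called higher in ROBO1pos, and IGF2BP3 (0.056) and HMGA1 (0.15) were not called; 80.6% of placed genes were. Leaving out 1 library gave 6087 to 6245 genes higher in ROBO1pos and 5976 to 6148 higher in ROBO1neg, and ended no member's call. The log2 IGF2BP1 to IGF2BP3 ratio differed by -0.12 to -0.035 without 1 library, and passed only without ROBO1pos replicate 5 (-0.12, exact permutation p = 0.048). Same-numbered libraries correlated at 0.0620 to 0.169 in their deviations from group means. For every replicate number this was above the highest correlation with a library of another number (-0.0089 to 0.095). Whether the numbers mark pairs was not tested, and the main test and the permutation tests treated libraries as unpaired. With the replicate block, 6226 genes were called higher in ROBO1pos and 6086 lower, and no member's call changed. The permutation tests of paralog ratios were not repeated with pairs. With the filter of 5 CPM, let-7 host transcripts called were 1 higher in ROBO1pos and 1 in ROBO1neg, other oncofetal genes higher in ROBO1neg were 2, and other cell type markers were 0 higher in ROBO1pos and 2 in ROBO1neg; with no filter beyond 1 count 5 of the last were higher in ROBO1pos. For 54 other genes named, removal of the neighbour median was added after the data were seen: 46 kept call and direction, and HUWE1 and KRT18 lost the call. PRKRA (0.0054), KRT8 (0.061) and DGCR8 (-0.013) changed sign and were not called. HMGB1 (0.23), TRIM71 (0.57) and DROSHA (-0.33) changed sign and were called in the new direction. The cause of these changes was not tested. Depth limits LIN28A and LIN28B, which the filter on low counts removed; with no filter beyond 1 count 5 members were called higher in ROBO1neg, LIN28A being the fifth, on 10 counts in all.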
